A study of Homo sapiens with 27 samples.

Results

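The IFIT and OAS families hold 8 of the 23230 genes in the count table: IFIT1, IFIT2, IFIT3, IFIT5, OAS1, OAS2, OAS3 and OASL. They were chosen with earlier results of these data known and taken by symbol, all are given whatever their values, and all 8 were found. RNA was sequenced from 3 human lines: SK-N-SH comes from a neuroblastoma, whereas BON-1 and QGP-1 come from neuroendocrine tumours of the pancreas. In each line, cells received dEx1 (the cDNA of the coactivator gene MAML3 without exon 1), FL (its full-length cDNA) or the empty vector, with 3 biological replicates per group per the labels and 27 libraries in 9 groups. Both MAML3 inserts sat in pCMV6-AC, which drives them from a viral promoter, and carried a C-terminal V5 tag. Delivery was by Lipofectamine, and RNA was taken on day 3. The vector cells also received plasmid and Lipofectamine, and no untransfected cells were analysed here, so every level below is that of a transfected culture. Expression was transient, the share of cells that took up plasmid was not given in the sources used here, and in such bulk cultures a lower level in all cells cannot be told apart from fewer cells with the RNA.

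Cells that sense foreign RNA or DNA secrete interferons, which bind receptors and activate transcription factors that bind interferon-stimulated response elements in promoters. IFIT and OAS genes are among their best known targets, and some IFIT genes also respond directly to the factor IRF3. IFIT proteins bind viral RNA: IFIT1 holds RNA whose cap lacks ribose methylation, IFIT3 stabilises IFIT1, IFIT2 partners both and can promote cell death, and IFIT5 binds RNA with triphosphate ends. OAS1, OAS2 and OAS3 sense double-stranded RNA and make oligoadenylates, which act as second messengers, whereas OASL has no such activity and enhances signalling by the RNA sensor RIG-I, the product of DDX58.

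Library totals ran between 73026244 and 120254457 deposited counts. MAML3 stood at 4919 to 13893 CPM (counts scaled by library size) in SK-N-SH dEx1, 7858 to 15839.6 CPM in SK-N-SH FL and 16.9 to 30.3 CPM in SK-N-SH vector libraries, and the construct libraries lay wholly above the vector libraries in the other lines too. Summed neuroblastoma and epithelial markers matched the labelled lines. Neuroblastoma markers gave 81.5 to 214 CPM in SK-N-SH libraries and at most 1.45 CPM in BON-1 and 10.6 CPM in QGP-1. Of these 6 markers, 5 were higher and 1 lower in SK-N-SH than in BON-1 vector libraries (edgeR adjusted p under 0.05). In each SK-N-SH group 1 of the 6 stayed under 1 CPM. Epithelial markers gave 24207 to 39704 CPM in BON-1, 4613 to 6249 CPM in QGP-1 and 126 to 288 CPM in SK-N-SH. Mesenchymal markers gave 10286 to 17862 CPM in SK-N-SH, 888 to 1194 CPM in BON-1 and 8.02 to 20.8 CPM in QGP-1. The 6 immune cell markers summed to 0.266 to 4.37 CPM in every library, and their part in the levels below was not tested. Some libraries stood apart. SK-N-SH vector replicate 3 lay next to the dEx1 libraries and away from the other vector libraries on the first principal component of its line (40.5% of the variance), and BON-1 vector replicate 1 lay alone on that of BON-1 (30.2%).

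The 8 genes lie in 3 places. On hg19, the build of the deposited data, IFIT2 (chr10:91043451-91069028), IFIT3 (chr10:91087064-91137230), IFIT1 (chr10:91152303-91166244) and IFIT5 (chr10:91174325-91181362) follow each other on the plus strand within 138.0 kb. OAS1 (chr12:113343661-113371024), OAS3 (chr12:113375856-113414265) and OAS2 (chr12:113416200-113449528) do so within 106.0 kb, and OASL (chr12:121455566-121477049) lies apart on the minus strand. The canonical transcript of each IFIT gene has 2 exons, whereas those of OAS1 and OASL have 6, that of OAS2 10 and that of OAS3 16. LIPA, which encodes lysosomal acid lipase, runs against the IFIT genes on the other strand and shares annotated exon bases with IFIT2 and IFIT3. At most 8.77% of the 31-base words of any of the 8 transcripts, that of IFIT3, occur in other genes.

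Promoters are shown because these genes are known targets of interferon; 4 of the 7 genes called in the comparison below have a window, as does IFIT5, which was not called. RefSeq windows on GRCh38.p14, each 250 bases before to 50 bases after a gene's start, were matched by symbol for 5 of the 8 genes. Windows for IFIT2, OAS2 and OASL were not used here. Capitals mark the letters GAAANNGAAA, or their complement TTTCNNTTTC, searched on both strands as a simple form of the interferon-stimulated response element.
IFIT3, chr10:89327747-89328046, plus strand: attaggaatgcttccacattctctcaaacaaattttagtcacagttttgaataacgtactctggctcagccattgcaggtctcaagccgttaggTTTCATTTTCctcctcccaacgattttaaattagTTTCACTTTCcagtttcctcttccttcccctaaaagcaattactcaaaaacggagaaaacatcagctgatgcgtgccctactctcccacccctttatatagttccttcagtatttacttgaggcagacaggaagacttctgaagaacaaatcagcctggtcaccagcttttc
IFIT1, chr10:89392373-89392672, plus strand: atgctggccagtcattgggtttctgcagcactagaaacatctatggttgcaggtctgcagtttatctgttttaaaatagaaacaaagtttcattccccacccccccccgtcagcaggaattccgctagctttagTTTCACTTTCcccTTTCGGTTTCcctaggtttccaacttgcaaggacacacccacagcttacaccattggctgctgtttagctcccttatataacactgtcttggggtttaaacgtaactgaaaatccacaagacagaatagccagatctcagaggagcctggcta
IFIT5, chr10:89414318-89414617, plus strand: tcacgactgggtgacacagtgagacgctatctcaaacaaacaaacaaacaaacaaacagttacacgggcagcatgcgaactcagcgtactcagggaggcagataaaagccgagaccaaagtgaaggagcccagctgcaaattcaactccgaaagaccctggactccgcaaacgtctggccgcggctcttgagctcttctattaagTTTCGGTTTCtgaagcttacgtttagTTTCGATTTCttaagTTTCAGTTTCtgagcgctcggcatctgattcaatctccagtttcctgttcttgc
OAS1, chr12:112906712-112907011, plus strand: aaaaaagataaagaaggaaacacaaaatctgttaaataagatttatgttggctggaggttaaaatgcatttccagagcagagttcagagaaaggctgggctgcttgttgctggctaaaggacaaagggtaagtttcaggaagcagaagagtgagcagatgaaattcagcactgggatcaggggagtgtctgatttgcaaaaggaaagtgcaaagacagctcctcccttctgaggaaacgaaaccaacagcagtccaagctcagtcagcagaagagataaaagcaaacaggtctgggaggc
OAS3, chr12:112938224-112938523, plus strand: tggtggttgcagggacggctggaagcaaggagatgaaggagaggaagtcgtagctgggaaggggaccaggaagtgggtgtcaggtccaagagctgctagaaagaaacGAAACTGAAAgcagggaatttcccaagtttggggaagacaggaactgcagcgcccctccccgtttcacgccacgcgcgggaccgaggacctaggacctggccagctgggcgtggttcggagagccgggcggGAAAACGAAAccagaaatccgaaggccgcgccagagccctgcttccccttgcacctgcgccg
The IFIT3 window shown holds 2 matches, beginning at −156 and −122 counted from the start, and a second RefSeq start of IFIT3 (chr10:89332279-89332578) also has 2. IFIT1 has 2, at −116 and −103, IFIT5 has 3, at −45, −19 and −4, and OAS3 has 2, at −143 and −12. OAS1 has 0 in this window, which says only that these letters are not there. Of the 35116 windows in the table, 1255 (3.57%) hold the letters, against 5 of the 6 windows of these genes (83.3%) and 17 of 26 windows of other interferon-stimulated effector genes (65.4%). A match describes letters and not a bound site.

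In SK-N-SH, dEx1 went with lower levels of 7 of the 8 genes than vector. The largest fall was that of IFIT2, followed by OAS2, OASL and IFIT3, and the gene that did not pass the test was IFIT5. For all 8 genes the 3 dEx1 libraries lay below the 3 vector libraries. Each gene was tested with edgeR's quasi-likelihood test across 14674 genes, and a call means a Benjamini-Hochberg adjusted p under 0.05. In this comparison 3.64% of all genes tested were called lower and 14.2% had dEx1 libraries wholly below vector libraries. The median log2 fold change was −1.86 over the 8 genes and 0.010 over all genes tested.

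Among the IFIT genes, IFIT2 had 148, 215 and 57.4 CPM in dEx1 replicates 1, 2 and 3, 694, 899 and 1307 CPM in FL replicates and 2427, 2118 and 1318 CPM in vector replicates. The dEx1 mean was 7.18% of the vector mean, and even the lowest vector library, replicate 3, was far above the highest dEx1 library. The fitted log2 fold change of IFIT2 in dEx1 against vector was −3.80 (SE 0.50, adjusted p = 0.00883). IFIT3 had 393, 448 and 155 CPM in dEx1 libraries, 1009.95, 1054 and 1351 CPM in FL libraries and 1579.7, 1427 and 1234 CPM in vector libraries. Its dEx1 group lay below both other groups, which overlapped, and its log2 fold change against vector was −2.09 (SE 0.34, adjusted p = 0.0161). IFIT1 had 422, 418 and 219.5 CPM in dEx1 libraries, 626, 635 and 892 CPM in FL libraries and 936, 853 and 960.2 CPM in vector libraries. It fell too, with a log2 fold change nearer 0 than those of its partners IFIT2 and IFIT3, −1.37 (SE 0.25, adjusted p = 0.0214). IFIT5 had 145, 139 and 76.8 CPM in dEx1 libraries, 192, 197 and 197 CPM in FL libraries and 209, 201 and 191 CPM in vector libraries. Its dEx1 libraries lay below all FL and vector libraries, but its log2 fold change of −0.73 (SE 0.20) did not pass the test (adjusted p = 0.0795).

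The OAS genes showed the same order of groups in dEx1 and vector cells. OAS2 had 82.6, 103 and 25.1 CPM in dEx1 libraries, 482, 539.9 and 582 CPM in FL libraries and 514, 459 and 457 CPM in vector libraries. The dEx1 mean of OAS2 was 14.7% of the vector mean, a log2 fold change of −2.76 (SE 0.43, adjusted p = 0.0141). OASL had 61.1, 71.7 and 24.6 CPM in dEx1 libraries, 218, 226 and 255 CPM in FL libraries and 233, 216 and 236 CPM in vector libraries, and its log2 fold change against vector was −2.12 (SE 0.33, adjusted p = 0.0141). FL and vector libraries of OAS2 and of OASL interleaved. OAS1, the smallest enzyme of the family, had 104, 84.0 and 44.5 CPM in dEx1 libraries, 333, 256 and 309 CPM in FL libraries and 247, 244 and 232 CPM in vector libraries. OAS3, the member most sensitive to long double-stranded RNA, had 499, 556 and 208 CPM in dEx1 libraries, 1242, 1228 and 1502 CPM in FL libraries and 1339.5, 1261 and 1159 CPM in vector libraries. The log2 fold changes in dEx1 against vector were −1.63 for OAS1 (SE 0.26, adjusted p = 0.0153) and −1.57 for OAS3 (SE 0.31, adjusted p = 0.0282).

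**Figure D1:**
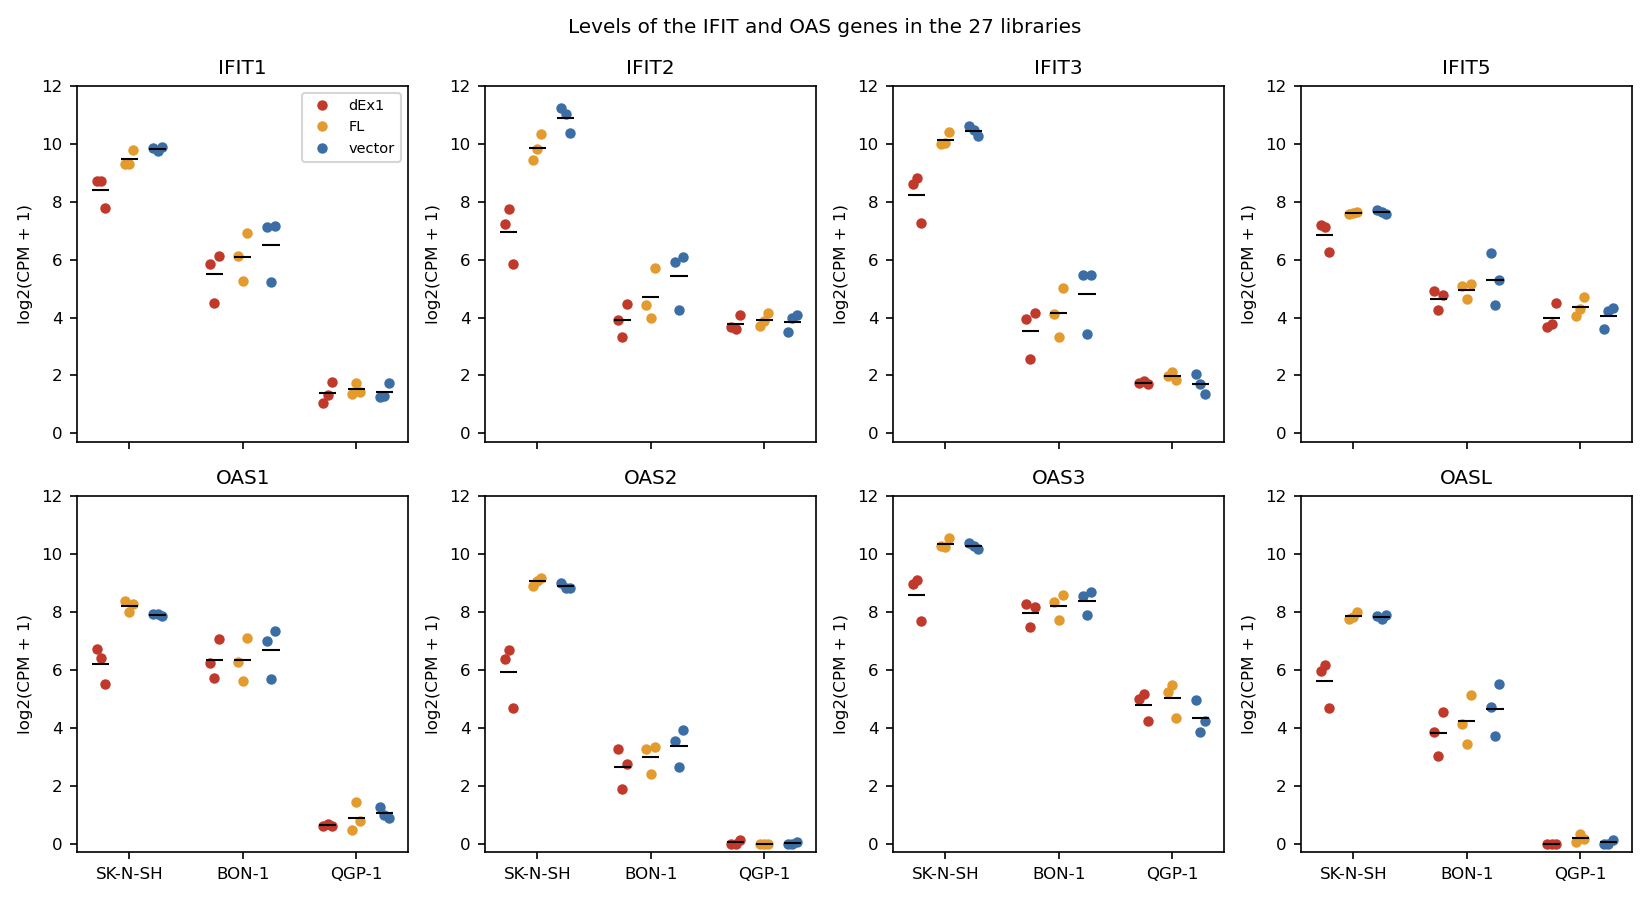
Level of each gene in the 27 libraries on a log scale, log2(CPM + 1), by line, with dEx1, FL and vector side by side; each point is 1 library and each bar the mean of 3. In SK-N-SH the 3 dEx1 points lie below the vector points in all 8 panels, and OAS2 and OASL come near 0 in QGP-1.

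The 3 dEx1 libraries were not alike. Replicate 3 was the lowest of its group for 8 of 8 genes, and the share of all genes lowest there was not counted. Its median over the 8 genes was −2.88 on the log2 scale against the vector mean, while replicates 1 and 2 had medians of −1.58 each. MAML3 was also lowest in dEx1 replicate 3, at 4919 CPM, against 9295 and 13893 CPM in replicates 1 and 2, and the part of the construct's level was not tested. Without dEx1 replicate 1 or without vector replicate 1 the calls in dEx1 against vector fell to 1 of 8 genes, OAS1 in the first case and IFIT2 in the second, and without vector replicate 2 to 3 of 8. Genes called in all moved with them, at 80, 108 and 154 in these cases against 656 with all libraries, and up to 2558 without vector replicate 3. Calls among the 8 genes stayed at 7 without vector replicate 3 and came to 8 without dEx1 replicate 3. All fold changes of the 8 genes stayed negative with any 1 library left out, the smallest being −0.51 for IFIT5 and the largest −4.25 for IFIT2. Fitted on the 6 libraries compared, 4 of 8 genes were called, with 300 genes called in all.

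Set against FL in place of vector, dEx1 SK-N-SH cells had lower levels of all 8 genes, IFIT5 included. The background was higher in this comparison: 11.5% of genes tested were called lower and 21.9% had dEx1 libraries wholly below FL libraries, as all 8 genes had. The log2 fold changes of dEx1 against FL ran between −2.92 for OAS2 (SE 0.43, adjusted p = 0.00278) and −0.69 for IFIT5 (SE 0.20, adjusted p = 0.0407). Those of OASL (−2.15, SE 0.33), OAS1 (−1.94, SE 0.27) and OAS3 (−1.65, SE 0.31) were close to their values against vector, while IFIT2 (−2.78, SE 0.47), IFIT3 (−1.77, SE 0.34) and IFIT1 (−1.02, SE 0.25) were nearer 0 than against vector. Both comparisons share the dEx1 libraries. With 1 library left out, 6 to 8 of the genes were called, while genes called in all numbered 1857 to 4024, against 3226 with all libraries. The call of IFIT5 was lost when any 1 of 6 libraries was left out (FL replicates 1, 2 and 3, vector replicates 1 and 2 and dEx1 replicate 2).

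FL itself gave no call among the 8 genes in SK-N-SH against vector (edgeR, with 0 genes at an unadjusted p under 0.05 and 0 calls by DESeq2). In this comparison edgeR called 1.74% of genes tested (255 genes, against 1168 by DESeq2) and 15.7% had an unadjusted p under 0.05. The 8 log2 fold changes split evenly in sign, with 4 below and 4 above 0. IFIT2 had the largest, −1.01 (SE 0.45, edgeR unadjusted p = 0.0502, adjusted p = 0.320), so it lay just over the unadjusted cutoff. Its 3 FL libraries lay below its 3 vector libraries by a gap as small as 1307 against 1318 CPM. OAS1 was the gene with all 3 FL libraries above all 3 vector libraries, and its log2 fold change was 0.31 (SE 0.26, adjusted p = 0.633). Groups wholly below or above vector were found for 9.94% and 11.5% of all genes tested. IFIT1 (−0.35), IFIT3 (−0.31) and IFIT5 (−0.040) were below 0 and OAS2 (0.16), OAS3 (0.079) and OASL (0.031) above, and FL and vector libraries overlapped for each of them.

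**Figure D2:**
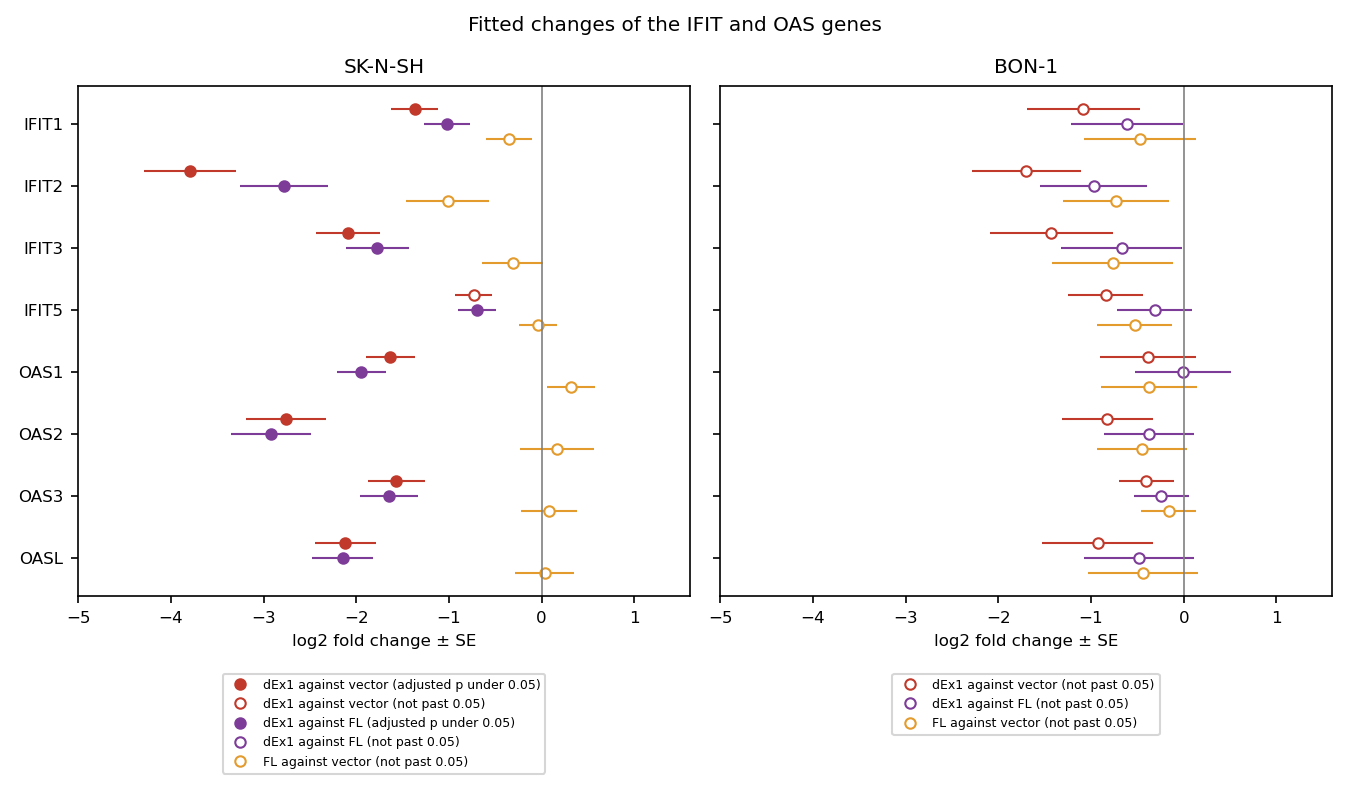
Fitted log2 fold changes with their standard errors in SK-N-SH (left) and BON-1 (right), from 9 libraries per line. Filled points passed the adjusted p threshold of 0.05: 7 of 8 genes in SK-N-SH dEx1 against vector and 8 of 8 against FL, with none in SK-N-SH FL against vector or in the 3 BON-1 comparisons (edgeR); in BON-1 every point lies below 0.

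The 8 genes together were summed as a share of each library. In SK-N-SH they took 0.0779% to 0.206% of all counts in dEx1 libraries, 0.459% to 0.595% in FL libraries and 0.534% to 0.740% in vector libraries. Per kilobase of the canonical transcript, IFIT3 (591 CPM per kb) and IFIT2 (576 CPM per kb) led in vector libraries, with an SD of 72.6 and 169 (n = 3 each), so their order was within the spread. IFIT1 (213), OAS3 (189.9), OAS1 (148), OAS2 (103), OASL (69.8) and IFIT5 (49.7 CPM per kb) followed. In dEx1 libraries IFIT3 still led at 139 CPM per kb, but the IFIT2 mean was the fifth at 41.3 CPM per kb, below IFIT1 (82.1), OAS3 (63.8) and OAS1 (47.5), with OASL (16.0) and OAS2 (15.2) lowest. The order of IFIT2 and OAS1 (SD 23.3 and 18.6) and that of OASL and OAS2 (SD 7.55 and 8.74) were within the spread (n = 3 each).

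Within the IFIT family, IFIT2 changed its standing against IFIT1, which is a ratio that depth and scaling of a library do not touch. This ratio was chosen after its values were seen and is not corrected for length. SK-N-SH had 0.262 to 0.515 IFIT2 counts per IFIT1 count in dEx1, 1.11 to 1.47 in FL and 1.37 to 2.59 in vector libraries. BON-1 had 0.251 to 0.412 in dEx1, 0.305 to 0.424 in FL and 0.426 to 0.502 in vector libraries, and QGP-1 had 6.60 to 10.9, 5.91 to 9.79 and 6.94 to 10.1 in the same order of groups. The dEx1 libraries thus lay wholly below the vector libraries in SK-N-SH and in BON-1 and overlapped them in QGP-1. The log2 ratio differed by −2.52 in SK-N-SH dEx1 against vector, by −1.87 in SK-N-SH dEx1 against FL, by −0.57 in BON-1 dEx1 against vector and by −0.33 in BON-1 FL against vector. Each of these had an exact two-sided permutation p of 0.1, the smallest that 3 against 3 libraries can give (adjusted p 0.225 over the 9 comparisons), and the other 5 had exact p between 0.3 and 0.9.

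**Figure D3:**
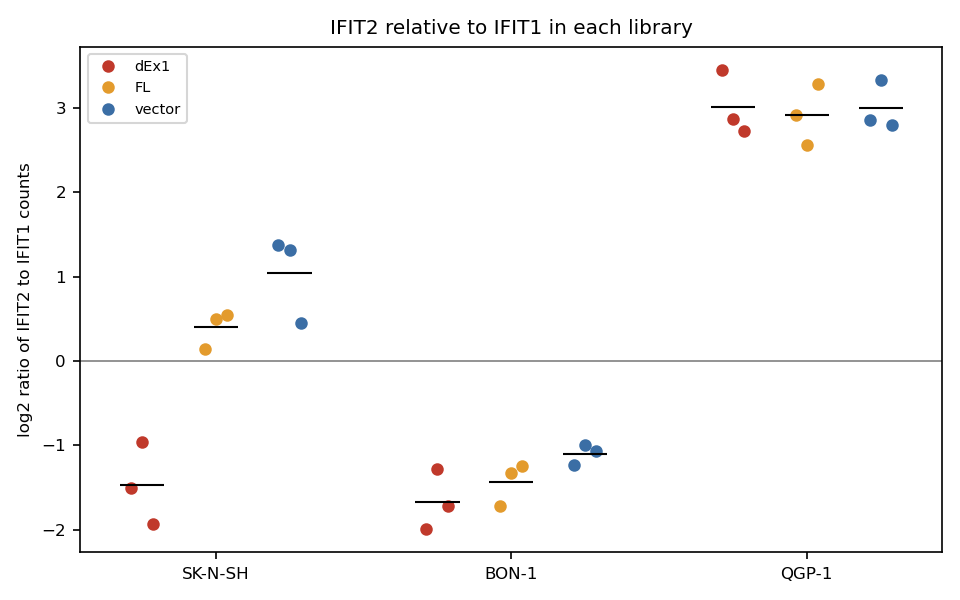
Ratio of IFIT2 to IFIT1 counts in each of the 27 libraries on a log2 axis, by line and group, with bars at the means of 3. SK-N-SH dEx1 libraries, at 0.262 to 0.515 IFIT2 counts per IFIT1 count, overlap the BON-1 libraries, while the QGP-1 libraries lie between 5.91 and 10.9.

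In BON-1, all 8 genes had lower fitted levels in dEx1 than in vector cells, but none passed the test, and dEx1 and vector libraries overlapped for each gene (3.28% of all genes had dEx1 libraries wholly below vector libraries). Over all genes tested in BON-1 dEx1 against vector, 0.0134% were called in either direction and 0% lower. IFIT2 had an unadjusted p under 0.05, the single gene of the 8 to do so (2.88% of all genes did), and DESeq2 called 0 of the 8. IFIT2 had 14.2, 8.998 and 21.2 CPM in dEx1 replicates 1, 2 and 3, 20.8, 14.9 and 51.3 CPM in FL replicates and 58.9, 18.4 and 67.3 CPM in vector replicates. Its log2 fold change in dEx1 against vector was −1.70 (SE 0.59, unadjusted p = 0.0179, adjusted p = 0.916). IFIT3 (−1.43, SE 0.66), IFIT1 (−1.09, SE 0.61), OASL (−0.93, SE 0.60), IFIT5 (−0.84, SE 0.40) and OAS2 (−0.83, SE 0.49) came next, and OAS3 (−0.40, SE 0.30) and OAS1 (−0.38, SE 0.52) were closest to 0.

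The spread in BON-1 followed the replicate numbers. Replicate 2 was the lowest library for 8 of 8 genes in the dEx1, the FL and the vector group alike. OAS1, for example, had 75.3, 51.4 and 133 CPM in dEx1 replicates 1, 2 and 3, 75.8, 48.0 and 138 CPM in FL replicates and 126, 50.9 and 164 CPM in vector replicates. For 7 of the 8 genes the dEx1 library of a replicate number was below the vector library of that number in all 3 pairs, OAS1 being the exception with 2 of 3. How many of all genes showed either order was not counted, so neither count has a background to be set against. Libraries of the same number deviated together over all genes, with correlations of 0.114 to 0.495, so the replicate number was also fitted as a block. With the block the dEx1 changes had smaller errors, −1.61 (SE 0.25) for IFIT2, −1.03 (SE 0.19) for IFIT1 and −0.90 (SE 0.10) for OASL. Their adjusted p of 0.328, 0.385 and 0.210 did not pass either.

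**Figure D4:**
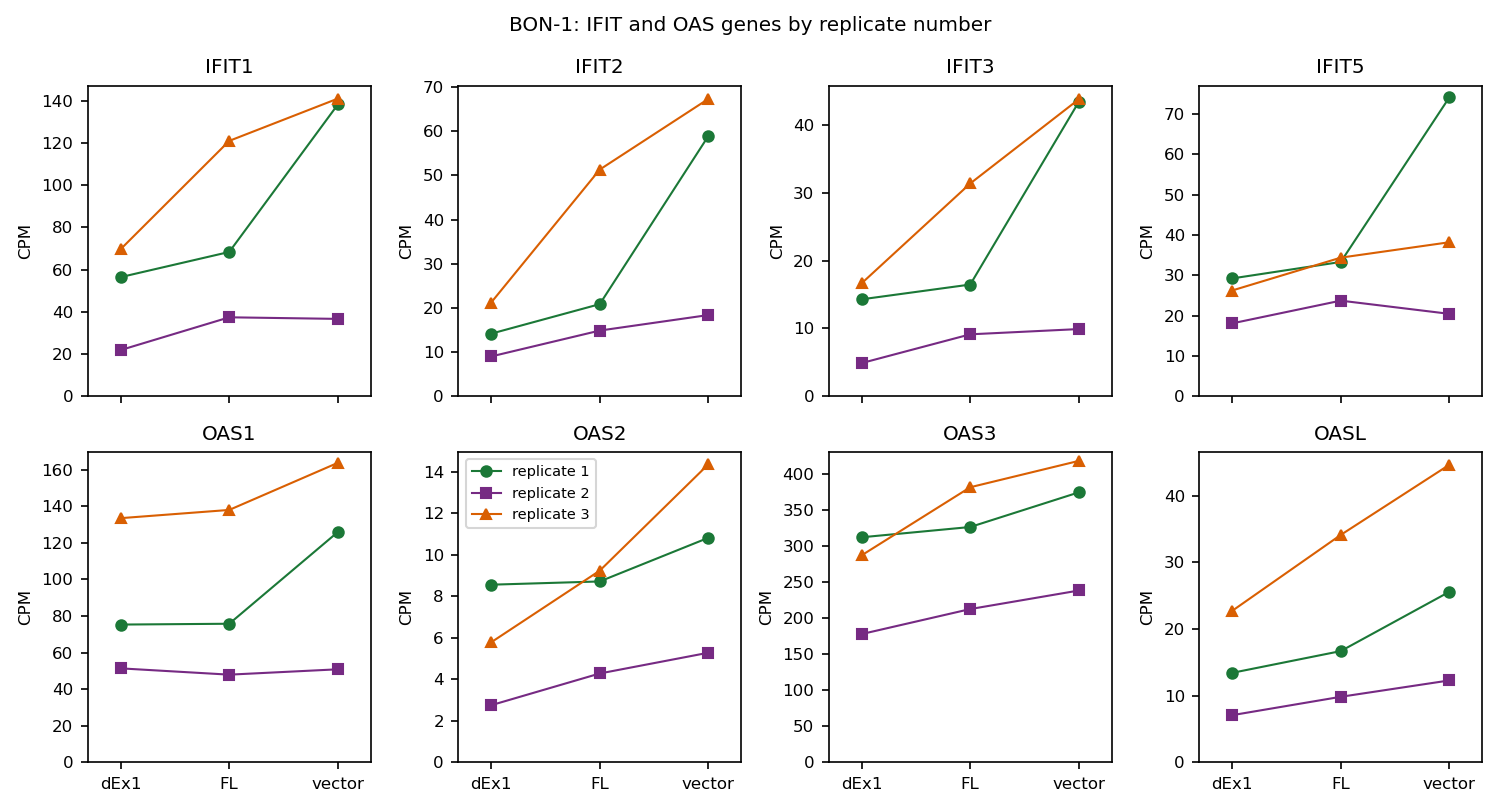
Level of each gene (CPM, linear axis from 0) in the BON-1 dEx1, FL and vector libraries, with lines joining libraries of the same replicate number. Replicate 2 is the lowest line in all 8 panels, and 7 of 8 genes are lower in dEx1 than in vector for every replicate number. The share of all genes with these orders was not counted.

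FL in BON-1 gave the same sign for all 8 genes against vector, with log2 fold changes between −0.76 for IFIT3 (SE 0.65) and −0.16 for OAS3 (SE 0.30), and no call (smallest adjusted p 0.928). Of all genes, 0.00671% were called in that comparison, 0 of the 8 genes had an unadjusted p under 0.05 against 3.86% of all genes, and DESeq2 called 0 of the 8. In dEx1 against FL the log2 fold changes ran between −0.97 for IFIT2 (SE 0.58) and −0.0068 for OAS1 (SE 0.52), again with 0 calls by edgeR or DESeq2 and 0 genes at an unadjusted p under 0.05. Of all genes tested, 0% were called and 1.05% had an unadjusted p under 0.05. The 3 BON-1 comparisons share their libraries in pairs, so their signs are not separate pieces of evidence. The 8 genes together took 0.0292% to 0.0545% of counts in BON-1 dEx1 libraries, 0.0355% to 0.0754% in FL libraries and 0.0388% to 0.0900% in vector libraries.

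QGP-1 hardly expressed most of the 8 genes, and no construct gave a call. OAS2 was listed at 0, 0 and 10 counts in dEx1 replicates 1, 2 and 3, at 0 counts in all 3 FL libraries and at 0, 0 and 4 counts in vector libraries. OASL was at 0 counts in all 3 dEx1 libraries, at 5, 34 and 12 counts in FL libraries and at 0, 0 and 10 counts in vector libraries. A floor of 3 counts corresponds to 0.0227 to 0.0345 CPM in these libraries, which covers counting error alone, and no fold change is given for these genes. OAS1 (0.391 to 1.71 CPM), IFIT1 (1.09 to 2.41 CPM) and IFIT3 (1.56 to 3.32 CPM) were low in all 9 QGP-1 libraries. Only IFIT2 (10.3 to 16.8 CPM), IFIT5 (11.1 to 25.2 CPM) and OAS3 (13.4 to 43.6 CPM) exceeded 10 CPM throughout.

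Of the 8 genes, 7 passed the filter on low counts in QGP-1, OAS2 being the one that did not, and 0 were called in any of the 3 comparisons by edgeR or by DESeq2. The share of all genes called was 0.0207% in dEx1 against vector, 0.0275% in FL against vector and 0.0138% in dEx1 against FL. At an unadjusted p under 0.05 there were 0, 0 and 1 of the 8 genes, the 1 being OASL at the counts above, against 3.63%, 5.08% and 1.28% of all genes. IFIT2 showed log2 fold changes of −0.068 (SE 0.21) in dEx1 and 0.055 (SE 0.21) in FL against vector, and IFIT5 of −0.048 (SE 0.29) and 0.32 (SE 0.29). OAS3 had 30.7, 34.98 and 18.0 CPM in dEx1 replicates 1, 2 and 3, 36.6, 43.6 and 19.5 CPM in FL replicates and 30.4, 13.4 and 17.9 CPM in vector replicates. These OAS3 levels fell into 2 sets that matched sides of the first principal component of QGP-1 (40.3% of the variance) and not the constructs. OAS3 stood at 30.4 to 43.6 CPM in the 5 libraries of 1 side, replicate 1 of every group with replicate 2 of FL and dEx1, and at 13.4 to 19.5 CPM in the 4 others. OAS1 dEx1 libraries lay wholly below vector libraries, as 4.09% of genes did. IFIT3 dEx1 libraries, and those of OASL at the counts above, lay wholly below FL libraries, as 2.54% of genes did. By side of that component IFIT2 ran the other way, at 10.3 to 13.8 CPM in those 5 libraries and 14.8 to 16.8 CPM in the 4 others. IFIT1, IFIT3, IFIT5, OAS1, OAS2 and OASL overlapped between the sides. The component comes from these same libraries, and the share of all genes split by its sides was not counted. The part of this split in the comparisons was not tested.

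Whether a construct acted differently in SK-N-SH than in the pancreatic lines was tested as a difference of log2 fold changes, SK-N-SH minus the mean of BON-1 and QGP-1, in 1 model of 27 libraries. For dEx1 against vector, 1 of the 8 genes was called, IFIT2, with a difference of −2.91 (SE 0.61, adjusted p = 0.0198), and 0.782% of the 16883 genes tested were called in that direction. DESeq2 called 594 genes in either direction, against 149 by edgeR, and 3 of the 8 were among them. IFIT3, OAS1, IFIT1 and IFIT5 were not among these 3, so the 3 calls included OAS2 or OASL, whose counts in QGP-1 were near 0. The differences of OAS3 (−1.59, SE 0.45, adjusted p = 0.105), IFIT3 (−1.38, SE 0.61, adjusted p = 0.349), OAS1 (−0.97, SE 0.58), IFIT1 (−0.80, SE 0.57) and IFIT5 (−0.29, SE 0.42) did not pass. With the replicate number as a block within each line, 912 genes were called in either direction. Of the 8 genes 3 were called in that fit: IFIT2 (−3.03, SE 0.45, adjusted p = 0.00172), OAS3 (−1.63, SE 0.36, adjusted p = 0.0182) and IFIT3 (−1.50, SE 0.36, adjusted p = 0.0286). None is given for OAS2 and OASL because of their counts in QGP-1. The IFIT2 call was lost without SK-N-SH dEx1 replicate 1 or 3 or vector replicate 1 or 2, and against BON-1 alone the difference was −2.09 (adjusted p = 0.235), against QGP-1 alone −3.72 (adjusted p = 0.0134). For FL against vector 0 of the 8 genes were called by edgeR or DESeq2, with 0 at an unadjusted p under 0.05, where 0.373% of all genes were called and 9.76% had such a p.

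The lines themselves differed in level. In vector libraries, SK-N-SH had higher levels than BON-1 of all 8 genes, where 29.7% of all genes were called higher, and higher levels than QGP-1 of all 8, where 30.6% were. BON-1 had higher levels than QGP-1 of all 8 as well, against 27.7% of all genes. Between SK-N-SH and BON-1 vector libraries the log2 difference was 5.55 for OAS2 (SE 0.62), 5.45 for IFIT3 (SE 0.59) and 5.34 for IFIT2 (SE 0.58), but 1.87 for OAS3 (SE 0.38) and 1.09 for OAS1 (SE 0.46, adjusted p = 0.0473). The OAS1 call was lost when any 1 of 15 libraries was left out. Between SK-N-SH and QGP-1 it reached 9.24 for IFIT3 (SE 0.70) and 9.05 for IFIT1 (SE 0.66), and was lowest for IFIT5, at 3.65 (SE 0.38). Between BON-1 and QGP-1 it was 6.70 for OAS1 (SE 0.59), 5.93 for IFIT1 (SE 0.58), 1.81 for IFIT2 (SE 0.50) and 1.47 for IFIT5 (SE 0.35).

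The order of the genes per length was another in each line. Per kilobase, BON-1 vector libraries were led by OAS1 (69.6 CPM per kb, SD 35.2) and OAS3 (52.1, SD 14.2), ahead of IFIT1 (24.5), IFIT2 (14.2) and IFIT3 (13.6), with OAS2 lowest at 2.20 CPM per kb (n = 3 each). QGP-1 vector libraries were led by IFIT2 (4.04), IFIT5 (3.96) and OAS3 (3.12 CPM per kb), which did not differ beyond their SDs of 0.897, 1.05 and 1.34. SK-N-SH dEx1 libraries did not drop to QGP-1 levels for any gene. They overlapped BON-1 vector libraries for IFIT2 (57.4 to 215 CPM against 18.4 to 67.3 CPM), OAS1 (44.5 to 104 CPM against 50.9 to 164 CPM), OAS3 (208 to 556 CPM against 239 to 418 CPM) and OASL (24.6 to 71.7 CPM against 12.3 to 44.6 CPM). For OAS1 the SK-N-SH dEx1 mean (77.5 CPM, SD 30.3) was the lower of the 2, against 114 CPM in BON-1 vector libraries (SD 57.4, n = 3 each).

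The rest of the interferon pathway was followed through lists of 56 genes, of which 49 were used here and 46 tested in SK-N-SH. These lists were chosen with earlier results of these data known, so the shares of all genes beside their counts are no test of them. In SK-N-SH dEx1 against vector 21 were lower and 0 higher, and in dEx1 against FL 30 were lower and 0 higher (3.64% and 11.5% of all genes tested were lower). In FL against vector 0 were called by edgeR and 1 by DESeq2, with 4 at an unadjusted p under 0.05, as 15.7% of all genes were. Among the ligands, IFNB1, which encodes interferon beta, had 0.0600, 0.697 and 0.0584 CPM in SK-N-SH dEx1 libraries, 1.78, 3.68 and 5.62 CPM in FL libraries and 22.1, 17.3 and 6.87 CPM in vector libraries. IFNL1, a lambda interferon, had 0, 0.483 and 0.105 CPM in dEx1, 1.68, 2.33 and 5.35 CPM in FL and 14.9, 11.7 and 3.84 CPM in vector libraries. For both ligands, vector replicate 3 was the lowest of the vector libraries and FL replicate 3 the highest of the FL libraries. Vector replicate 3 was likewise the lowest for 6 of the 8 genes and FL replicate 3 the highest for 7, IFIT2 being among them in both cases. The share of all genes with this order was not counted. IFNB1 was at 0 counts in all 9 BON-1 libraries, where IFNL1 had 0.176 to 2.85 CPM.

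Receptors and their kinases gave 0 calls of 5 tested in SK-N-SH dEx1 against vector, with log2 fold changes of 0.070 for IFNAR1 (SE 0.12) and −0.44 for IFNLR1 (SE 0.30). IRF9, a factor that acts below the interferon receptors, stood at −0.45 (SE 0.11, adjusted p = 0.0519). Of the other IRF factors 2 of 5 fell, among them IRF1 (−1.75, SE 0.27), while IRF7, which amplifies interferon production, stood at −0.98 (SE 0.26, adjusted p = 0.0689). Of the nucleic acid sensors 5 of 7 fell, including TLR3 (−1.83, SE 0.24), IFIH1, which encodes MDA5 (−1.57, SE 0.28), and DDX58 (−1.09, SE 0.25), but not EIF2AK2, the kinase PKR (−0.45, SE 0.21, adjusted p = 0.240). Other interferon-stimulated effectors fell in 12 of 19 cases, such as RSAD2, the antiviral enzyme viperin (−3.03, SE 0.53), MX1, a dynamin-like GTPase (−1.48, SE 0.33), and ISG15, a ubiquitin-like modifier (−1.34, SE 0.29).

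PDE12, a phosphodiesterase that degrades the oligoadenylates made by OAS enzymes, did not pass the test in SK-N-SH dEx1 against vector, at a log2 fold change of −0.12 (SE 0.071, adjusted p = 0.342). In BON-1, edgeR and DESeq2 called 0 of 41 tested pathway genes in any comparison. At an unadjusted p under 0.05 there were 8 in dEx1 against vector, 1 in FL against vector and 0 in dEx1 against FL. Of all genes tested, 2.88%, 3.86% and 1.05% had such a p. In QGP-1, edgeR called 0 of 36 and DESeq2 called 1, in FL against vector. At an unadjusted p under 0.05 there were 2, 5 and 1 in the same order of comparisons, against 3.63%, 5.08% and 1.28% of all genes tested.

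The genes whose levels ran most like each of the 8 were found by the root mean square difference of log2 levels over 27 libraries, each centred on its line's mean. MX1 was among the 3 closest for 4 of the 8 genes (IFIT1, IFIT3, OAS1 and OASL), and IFI35 for 3 (IFIT3, OAS1 and OAS3). The closest were DDX58 for IFIT1 (0.29), HSH2D for IFIT2 (0.49), MX1 for IFIT3 (0.33), PARP9 for IFIT5 (0.20), IRF1 for OAS1 (0.39), MX2 for OAS2 (0.55), PLSCR1 for OAS3 (0.27) and XAF1 for OASL (0.72). Median distances over all genes were between 0.60 for IFIT5 and 1.24 for IFIT2. Among the 8 themselves IFIT1 and IFIT5 were closest (0.37) and OAS2 and OASL farthest apart (1.04). Pairs were not ordered by family: IFIT3 was nearer to OAS3 (0.46) than to IFIT2 (0.53). The centred values share the libraries and their scaling, and these distances are descriptions.

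Other protein-coding genes within 100 kb of the 3 loci, a set chosen after the data were seen, were tested too. Of 10 such genes 9 were tested in SK-N-SH, and 1 was lower in dEx1 than in vector cells: CH25H, which encodes cholesterol 25-hydroxylase, an enzyme also known as interferon-induced, with a log2 fold change of −3.34 (SE 0.65, adjusted p = 0.0272). It averaged 0.430 CPM in dEx1 and 4.39 CPM in vector libraries. LIPA, whose annotation overlaps IFIT2 and IFIT3 on the other strand, averaged 86.9 CPM in dEx1 and 84.3 CPM in vector libraries, a log2 fold change of 0.049 (SE 0.12, adjusted p = 0.856). Whether reads were counted by strand is not given in the sources used here, so reads of LIPA and of the IFIT genes may have been split between them. Against all genes, of which 3.64% were lower there and 22% were called in dEx1 against FL, these counts show nothing particular to the set. In dEx1 against FL, P2RX7 beside OASL was lower (−2.62, SE 0.53, adjusted p = 0.00987) and LIPA was higher (0.48, SE 0.12, adjusted p = 0.0243).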

How the data were processed

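The data are RNA-seq libraries of 9 groups with 3 biological replicates each. The authors deposited estimated counts per gene, written as whole numbers. Per the submitters' processing notes, reads went through Trimmomatic, HISAT2 on hg19 and StringTie; versions, strand and annotation are not given in the sources used here. Small values heap at 5 (7317 values), so what 1 fragment is worth is unknown, and depth (73026244 to 120254457 counts) limits precision only in a relative sense; floors cover counting error only.

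Of 23234 listed genes, 4 with duplicate symbols were left out and 23230 used. Each line's 9 libraries were fitted with edgeR 4.0.16 in R 4.3.3 (filterByExpr, TMM scaling, quasi-likelihood test, no replicate block), and contrasts between lines came from 1 model of 27 libraries. Genes tested numbered 14674 in SK-N-SH, 14903 in BON-1, 14522 in QGP-1 and 16883 over all libraries, with Benjamini-Hochberg adjustment over all of them and a threshold of 0.05. Levels are CPM with TMM factors over 27 libraries. The fits were tested on simulated data, drawn without shifts between replicate numbers or outlying libraries, so that check does not cover either. Figures used matplotlib 3.10.9.

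The 8 genes and the pathway lists were chosen with earlier results of these data known; all 8 are named whatever their values, and of the lists the genes marked beforehand. The 3 genes most like each were taken by smallest distance. Replicate numbers were checked as pairs by the correlation of deviations from group means: in BON-1 every pair was over 0.1 (0.114 to 0.495). Alternatives were other filters, DESeq2 1.42.0 and its size factors, counts divided by 5, a block, other sets of libraries and each library left out. Values of some pathway genes are not reported here.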

Additional observations from a re-analysis of the deposited data

Results flagged for a closer look

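The change of IFIT2 with dEx1 in SK-N-SH differed from the mean of the pancreatic lines by a test of the difference itself. Its log2 fold change against vector in SK-N-SH minus the mean of those in BON-1 and QGP-1 was −2.91 (SE 0.61, edgeR adjusted p = 0.0198), from fold changes fitted in 1 model of 27 libraries. It was the 1 gene of the 8 with such a call, and over all alternatives the adjusted p ran between 0.000195 and 0.235. The call was lost under 5 of 35 alternatives. These were BON-1 alone in place of the mean (−2.09, edgeR adjusted p = 0.235), and SK-N-SH dEx1 replicate 1 or 3 or vector replicate 1 or 2 left out.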

How the results depend on the processing

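Of 2220 single-gene values under an alternative, 2109 kept direction and side of the threshold, 52 lost a call, 8 gained one and 51 changed sign; no value that changed sign had been called. In SK-N-SH dEx1 against vector, 4 of the 8 genes were called on the 6 libraries compared, 5 with 27 libraries in 1 fit, 8 with DESeq2, with the replicate block or with a term for replicate 3, and 1 to 8 with a library left out. Genes called in all numbered 656 there, against 300 on 6 libraries, 1997 with DESeq2, 2212 with the block and 2714 with the replicate 3 term. In FL against vector the 255 became 28, 1168, 778 and 1117. In dEx1 against FL, 6 of 8 were called with 27 libraries in 1 fit and 6 to 8 with a library left out. For the dEx1 effect between lines, DESeq2 and the replicate block within each line called 3 each, but not the same 3. With BON-1 alone 0 were called, and with a library left out 0 to 2. Genes in all numbered 149 there, 594 with DESeq2, 912 with the block, 56 with BON-1 alone and 88 with QGP-1 alone. For the FL effect they numbered 63, 398 with DESeq2 and 478 with the block. In BON-1 and QGP-1 at most 4 genes were called, against 8 to 112 with DESeq2. SK-N-SH over BON-1 in vector libraries gave 7 to 8 with a library left out. The cause was not tested.

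In SK-N-SH the replicate 1 correlations (0.0460 to 0.0971) fell short of the 0.1 asked of every pair, while those of replicates 2 and 3 were 0.251 to 0.458. In QGP-1 against vector, replicate 2 fell short (−0.145 and −0.172). Replicate numbers paired QGP-1 dEx1 and FL (0.228 to 0.573). The block gave IFIT5 in SK-N-SH dEx1 against vector an adjusted p of 0.0400 and OAS1 in BON-1 dEx1 against FL a log2 fold change of 0.018; with it IFIT3 (−1.50) and OAS3 (−1.63) also passed in the dEx1 effect between lines, and it changed no other call.

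Other changes of sign were small and uncalled. With BON-1 alone, the FL effect between lines was 0.13 for IFIT1, 0.46 for IFIT3 and 0.24 for OAS3, and the dEx1 effect 0.11 for IFIT5; with QGP-1 alone the FL effect was −0.36 for IFIT5. With a library left out, SK-N-SH FL against vector ran −0.040 to 0.079 for OASL and −0.024 to 0.13 for OAS3. BON-1 FL against vector ran −0.35 to 0.050 for OAS3, −0.87 to 0.021 for OAS1, −0.85 to 0.041 for IFIT5 and −1.05 to 0.13 for OASL. BON-1 dEx1 ran −0.82 to 0.011 for OAS1 against vector, and against FL −0.45 to 0.49 for OAS1 and −0.97 to 0.12 for OASL. QGP-1 FL against vector ran −0.069 to 0.39 for IFIT1, −0.13 to 0.18 for IFIT2 and −0.98 to 0.14 for OAS1. QGP-1 dEx1 against vector ran −0.38 to 0.22 for IFIT1, −0.25 to 0.061 for IFIT2, −0.18 to 0.31 for IFIT3 and −0.36 to 0.10 for IFIT5, and against FL −0.51 to 0.059 for IFIT1, −0.28 to 0.0025 for IFIT2, −1.09 to 0.046 for OAS1 and −0.53 to 0.0021 for OAS3. The FL effect between lines ran −0.37 to 0.087 for IFIT1, −0.26 to 0.19 for IFIT3 and −0.22 to 0.24 for IFIT5.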
